A study of Mus musculus with 4 samples.

Results

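CHD4 was called above IgG along a pair of small nuclear RNA gene arrays of the mouse genome, 1 inside Tex14 on chromosome 11 and 1 around the long non-coding RNA gene D230017M19Rik on chromosome 1. The members are the 13 intervals of the authors' peak list whose gene symbol is Tex14 (7 intervals) or D230017M19Rik (6 intervals), out of 1849 intervals in all, with summits that share chromosome, start and end counted as 1 interval. The study used CUT&Tag, in which a transposase tethered to an antibody cuts and tags the DNA around the bound protein, on cells labelled spermatogonial from C57BL/6 mice described as WT. Antibody to CHD4 was used in 2 samples and an IgG labelled Rabbit Anti-Mouse in the other 2, numbered 1 and 2 in each group. Neither the animals' age nor the way spermatogonial cells were obtained from the digested testes is stated in the sources used here. A peak list holds no expression, so the cell label was not checked against marker genes. The list is 1 call of CHD4 over IgG with no value for a single sample, so every value below is a description without replicate error or test. The members were chosen among called peaks by their gene symbols after the arrays had been noticed, so their position at small nuclear RNA genes, their number and their height are not tested as findings.

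CHD4 is the motor subunit of NuRD, a complex that moves nucleosomes and removes histone acetylation. Small nuclear RNAs are short, abundant, non-coding RNAs: U1 pairs with the 5′ splice site of introns, U2 with the branch point, and U3, a small nucleolar RNA by function, is needed to cut the ribosomal RNA precursor. Their genes are short, exist in several near-identical copies and are read by RNA polymerase II, or for a few by polymerase III, from promoters bound by the SNAPc complex. A distal promoter element of vertebrate genes of this kind often holds an octamer bound by the POU factor Oct-1. Tex14 itself encodes a protein of the intercellular bridges between germ cells.

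The only promoter sequence used here that lies under a member is that of D230017M19Rik, and it is shown because the transcript starts beside a small nuclear RNA gene and its window holds that octamer. RefSeq places the start of D230017M19Rik at position 72243993 of chromosome 1, which is 220 bases below the lower end of the small nuclear RNA gene Gm24497 (72244213 to 72244403). The window of 250 bases before to 50 bases after the start, chr1:72243743-72244042 on the + strand of GRCm38.p6, shares 255 of its 300 bases with the interval from 72243788 to 72245264. The capitals mark the octamer.
D230017M19Rik: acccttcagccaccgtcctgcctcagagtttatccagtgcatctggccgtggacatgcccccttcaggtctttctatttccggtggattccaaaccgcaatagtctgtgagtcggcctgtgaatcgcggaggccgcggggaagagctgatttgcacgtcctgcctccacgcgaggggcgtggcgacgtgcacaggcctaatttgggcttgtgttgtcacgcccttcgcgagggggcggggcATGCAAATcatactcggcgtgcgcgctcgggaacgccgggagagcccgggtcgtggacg
The octamer ATGCAAAT was searched on both strands and occurred once, at 72243984 to 72243991, ending 222 bases below Gm24497. Among all 32851 RefSeq promoter windows of this length, 570, or 1.74%, held it on either strand. The GC box GGGCGG, searched likewise and not overlapping the octamer, also occurred once, at 72243975 to 72243980, and 35.7% of all windows held it. These matches describe the letters of 1 window and are not evidence of binding. No strand is given for Gm24497, so whether the octamer lies before or after that gene could not be read. The 5-summit interval over this window had its highest summit at 72244057, which lay 156 bases below the lower end of Gm24497.

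At Tex14 the 7 intervals spanned 49.5 kb and covered 12.7% of it, and at D230017M19Rik the 6 intervals spanned 30.2 kb and covered 15.1%. Gaps between neighbouring intervals had a median of 6.38 kb at Tex14, with a range from 0.325 to 14.8 kb, and a median of 6.19 kb at D230017M19Rik, with a range from 0.259 to 9.55 kb. Beyond the Tex14 group the nearest intervals of other genes were 770 kb below, at Vmp1, and 120 kb above, at Mtmr4. Beyond the D230017M19Rik group they were 8000 kb below, at Klf7, and 455 kb above, at Rpl37a. Both groups were therefore separated from the next interval by gaps longer than their own span.

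Most of the intervals overlapped small nuclear RNA genes that lie in or beside the genes they were named for. In the Tex14 span, 6 of 7 intervals overlapped a small nuclear RNA gene, and in the D230017M19Rik span 4 of 6 did. Over all 1849 intervals 25 did, or 1.35%, a share given as background only, since the arrays were picked for this overlap. Of the 7 small nuclear RNA genes in the Tex14 span, Gm23137, at 107 bases the shortest, had no interval. All 4 of those in the D230017M19Rik span had one. All 7 Tex14 intervals lay within Tex14. Its RefSeq start, at 87405065, lay 17.7 kb from the nearest interval. The transcript start that the authors' annotation used for Tex14 lies further inside the gene, within the interval of Gm22068. RefSeq has D230017M19Rik starting within the interval of Gm24497, and only 3 of its 6 intervals overlapped the RefSeq gene. The authors' annotation also used a start for D230017M19Rik at a lower position, 0.632 kb from the interval of Gm23472.

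**Figure D1:**
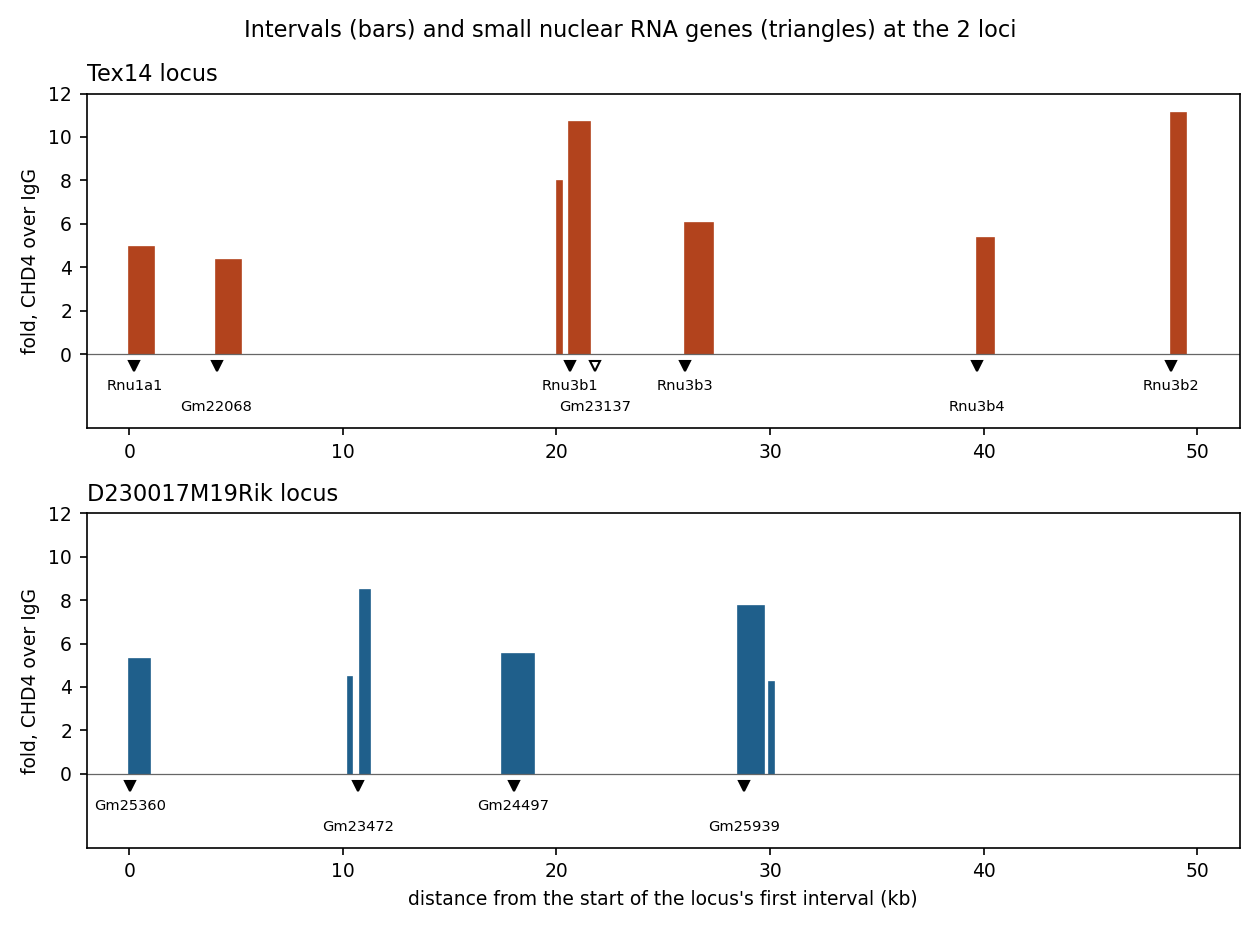
Intervals (bars, drawn to their width) and small nuclear RNA genes (triangles; open where no interval overlaps the gene) at the Tex14 and D230017M19Rik loci, by distance in kb from the start of the locus's first interval; bar height is the fold of CHD4 over IgG at the highest summit. The 7 Tex14 intervals have folds from 4.32 to 11.1 over 49.5 kb, and the 6 D230017M19Rik intervals 4.21 to 8.48 over 30.2 kb.

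The Tex14 array opens with a U1 gene, Rnu1a1, and a gene of the same length of 164 bases, Gm22068, whose starts are 3.85 kb apart. The fold quoted for an interval is the peak caller's own ratio of CHD4 to IgG at its highest summit, and −log10 q is the caller's adjusted significance at that summit. The fragment numbers were recovered from the fold and −log10 p, with exact 95% Poisson intervals that cover counting error only. Throughout, CHD4 fragments are given before scaling by 0.429, while the fold sets the scaled number against the IgG expectation. Dividing the fragments quoted by the expectation quoted therefore does not give the fold. The Rnu1a1 interval (chromosome 11, 87422717 to 87423858) was 1142 bp wide, with a fold of 4.92 and a −log10 q of 14. Each of its 2 summits held 113 CHD4 fragments (interval 93.1 to 136), over an IgG expectation of 16 at one and 9.04 at the other. The summits thus had the same number of CHD4 fragments, and their folds of 2.91 and 4.92 differed through the IgG expectation. The Gm22068 interval (87426794 to 87427955) was 1162 bp wide and had 3 summits, with folds of 4.13, 3.1 and 4.32. Its summit of highest fold held 38 fragments and had a −log10 q of 3.44, while the summit of fold 4.13, nearest the gene, held 94 fragments and had 8.98. These were the lowest 2 folds of the Tex14 array.

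The 4 U3 genes, Rnu3b1, Rnu3b3, Rnu3b4 and Rnu3b2 in order of position, each had an interval, and among these were the highest −log10 q of both arrays, at Rnu3b1, and the highest fold, at Rnu3b2. At Rnu3b1 the interval (87443295 to 87444277) had 1 summit with 147 fragments (124 to 173) over an expectation of 5, a fold of 10.7 and a −log10 q of 39.1. At Rnu3b3 (87448727 to 87450036) the fold was 6.02 from 138 fragments (116 to 163) over 9, with a −log10 q of 22.1. Rnu3b3 also had a second, weaker summit near the far edge of the interval, with 25 fragments and a fold of 4.12. At Rnu3b4 (87462414 to 87463189) the fold was 5.33 from 122 fragments (101 to 146) over 9, with a −log10 q of 16.8. At Rnu3b2 (87471504 to 87472192) the fold was 11.1 from 52 fragments (38.8 to 68.2) over 1.11, with a −log10 q of 15.9. Rnu3b1 and Rnu3b2 thus had nearly the same fold, but Rnu3b1 rested on more CHD4 fragments and a higher IgG expectation. The counting intervals cover neither differences between samples nor reads shared between copies, so this difference was not tested. From start to start, Rnu3b4 lay 13.7 kb above Rnu3b3 and Rnu3b2 lay 9.08 kb above Rnu3b4, so the U3 copies were not evenly spaced. The small nuclear RNA gene next below Rnu3b1 was Gm22068, at 16.5 kb, and that next below Rnu3b3 was Gm23137, at 4.15 kb. Near-identical copies of a gene can share reads, so how the fragments divide between these copies is uncertain.

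The D230017M19Rik array holds Gm25360, Gm23472, Gm24497 and Gm25939, each 191 bases long and listed as small nuclear RNA without a family name. Their starts were 10.7, 7.27 and 10.8 kb apart. At Gm25939 the interval (chromosome 1, 72254820 to 72256021) reached a −log10 q of 21.3, the highest here, with a fold of 7.74 from 106 fragments (86.8 to 128) over 5. At Gm25360 (72226318 to 72227298) the fold was 5.27 from 96 fragments (77.8 to 117) over 7. The Gm23472 interval (72237097 to 72237593) was the narrowest of the 10 on a small nuclear RNA gene, at 497 bp, and had the highest fold of the array, 8.48, from 39 fragments (27.7 to 53.3) over 1.09. At Gm24497 the interval of 1477 bp was the widest of both arrays. Its 5 summits had folds of 5.52, 4.18, 4.78, 3.45 and 3.95 in order of position, with 62, 66, 52, 28 and 29 fragments. As at the U3 genes, the highest fold of the array stood over the lowest IgG expectation and the highest −log10 q over a larger number of fragments.

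The other 3 members overlapped no small nuclear RNA gene, were narrow, at 186 to 230 bp, and had 1 summit each. The Tex14 member of this kind (87442740 to 87442969), in an intron of Tex14 and inside the long non-coding RNA gene LOC115487798, ended 325 bases short of the Rnu3b1 interval. It had a fold of 7.99 from 38 fragments over 1.16. At D230017M19Rik, the interval from 72236572 to 72236757 ended 339 bases short of the Gm23472 interval and had a fold of 4.44 from 31 fragments. The authors' annotation called it a promoter interval, 0.107 kb from a transcript start used for D230017M19Rik. The third (72256281 to 72256504), in an intron of D230017M19Rik, began 259 bases past the end of the Gm25939 interval, with a fold of 4.21 from 22 fragments. Its −log10 q of 1.73 was the lowest of the 13. Each of these narrow intervals thus lay within 0.339 kb of a wider one on a small nuclear RNA gene.

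The summits lay beside the small nuclear RNA genes and not on them. Of the 20 summits in the 10 intervals on such genes, 0 fell inside the gene. Above its higher end, in the direction of rising position, lay 18 summits, and below its lower end lay 2, at Gm24497 and Gm25939. All 10 intervals ran past the higher end, by a median of 827 bases and a range from 457 to 1195. At the lower end 7 of the 10 began inside the gene, from 58 bases into it at Rnu3b1 to 151 bases into it at Gm23472. Rnu1a1, Gm25939 and Gm24497 were the 3 genes covered whole, by intervals that began 150, 188 and 425 bases below them. Gene sequence made up 1226 of the 10219 bases in these intervals, or 12%. The highest summit was 96 bases past the higher end at Rnu3b1, 80 at Rnu3b2, 181 at Rnu3b3 and 251 at Rnu3b4, while at Rnu1a1 and Gm22068 it was 478 and 764 bases past.

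**Figure D2:**
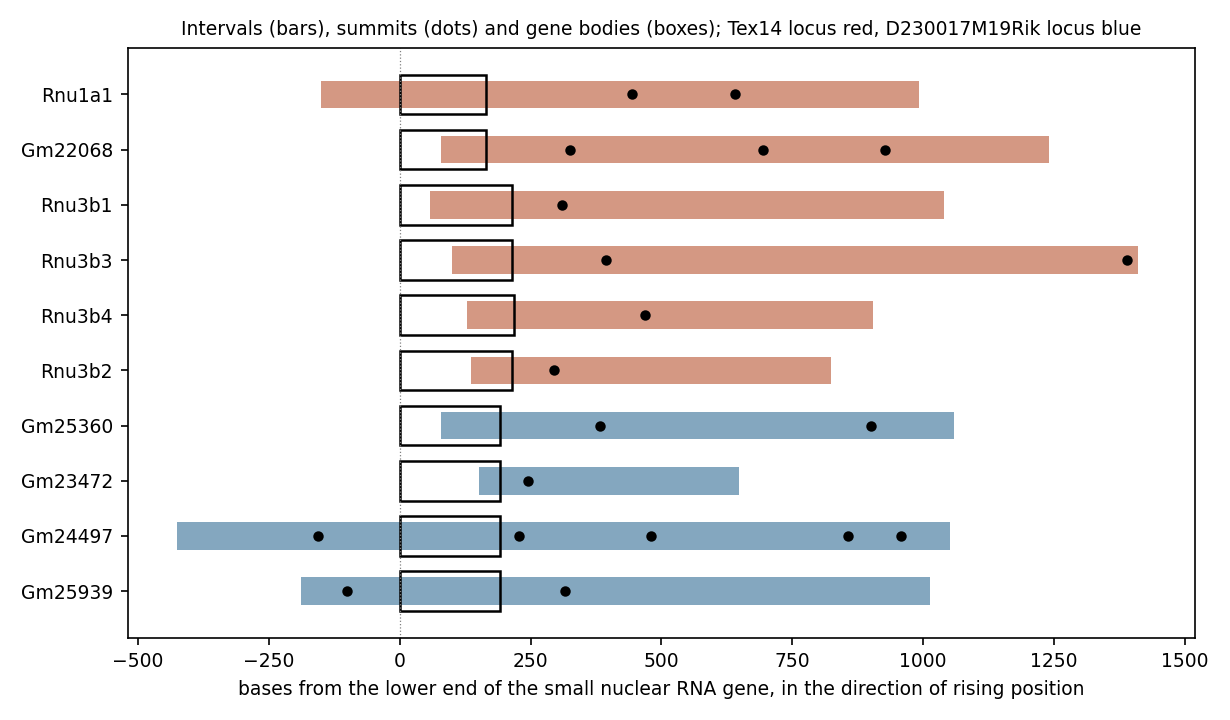
Intervals (coloured bars; Tex14 locus above, D230017M19Rik locus below it), their summits (dots) and the gene bodies (boxes) for the 10 small nuclear RNA genes with an interval, in bases from the lower end of each gene. All 10 intervals reach past the higher end, 7 begin inside the gene, and no summit lies in a box.

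The same placing was seen at the other 15 small nuclear RNA genes that had an interval, though less one-sided. There 0 of 36 summits fell inside the gene, 25 lay above its higher end and 11 below its lower end, and 14 of 15 intervals ran past the higher end. Of these 15 genes, 12 had the longer reach on the higher side, as did all 10 in the arrays. The gene table gives no strand, so the higher side could not be read as upstream or downstream for the array genes. The deposited list gives a strand for 3 others. Rnu3a, on the + strand, had an interval that began 149 bases into the gene and reached 228 bases past the higher end. Rnu12, also on the + strand, had one that reached 431 bases past the higher and 186 bases below the lower end. Its highest summit lay 93 bases below the lower end. Rnu11, on the − strand, had one that reached 505 bases past the higher and 466 bases below the lower end. At the 24 transfer RNA genes with an interval, 11 had the longer reach on the higher side. Within 300 bases of a transcript start, the median distance from start to summit, in the direction of rising position, was −21 bases for 277 intervals of + strand genes. For 258 intervals of − strand genes it was −0.5 bases. The median distance from start to interval midpoint was 6.5 and 28 bases. Intervals further from a transcript start were not compared in this way. The sources used here do not say whether reads that map equally well to several copies were kept, and the part of multiple mapping in the lack of summits inside the genes was not tested.

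By level, the array intervals ranked from 1 to 1599 of 1849 for −log10 q, from 6 to 1805 for width and from 6 to 1255 for fold. Of the 20 intervals with the highest −log10 q, 6 were members: those at Rnu3b1 (rank 1), Rnu3b3 (rank 3), Gm25939 (rank 4), Rnu3b4 (rank 10), Rnu3b2 (rank 11) and Rnu1a1 (rank 19). Of the 20 widest intervals 7 were members, and of the 20 with the highest fold 2 were, at Rnu3b2 (rank 6) and Rnu3b1 (rank 11). The 13 members had a median fold of 5.52 and a median −log10 q of 13, against 4.76 and 2.89 in the 1836 other intervals. Their median width was 981 bp, against 280 bp, and their median number of CHD4 fragments at the highest summit was 62, against 27. In width and fragments, though not in fold or −log10 q, the 15 other intervals on small nuclear RNA genes came close to the members. Their medians were 940 bp and 67 fragments, but a fold of 4.36 and a −log10 q of 4.93. Of these 15, 14 had 2 or more summits. Of the 13, 10 exceeded the median fold of all intervals, which 50% do by definition, and 6 had 2 or more summits, against 9.84% of all intervals. At q below 0.01 all 7 Tex14 and 5 of the 6 D230017M19Rik intervals would remain, against 77.3% of all intervals, and at q below 0.001, 7 and 4 would, against 45.8%. These values took part in calling the peaks that chose the members, so they carry no test.

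**Figure D3:**
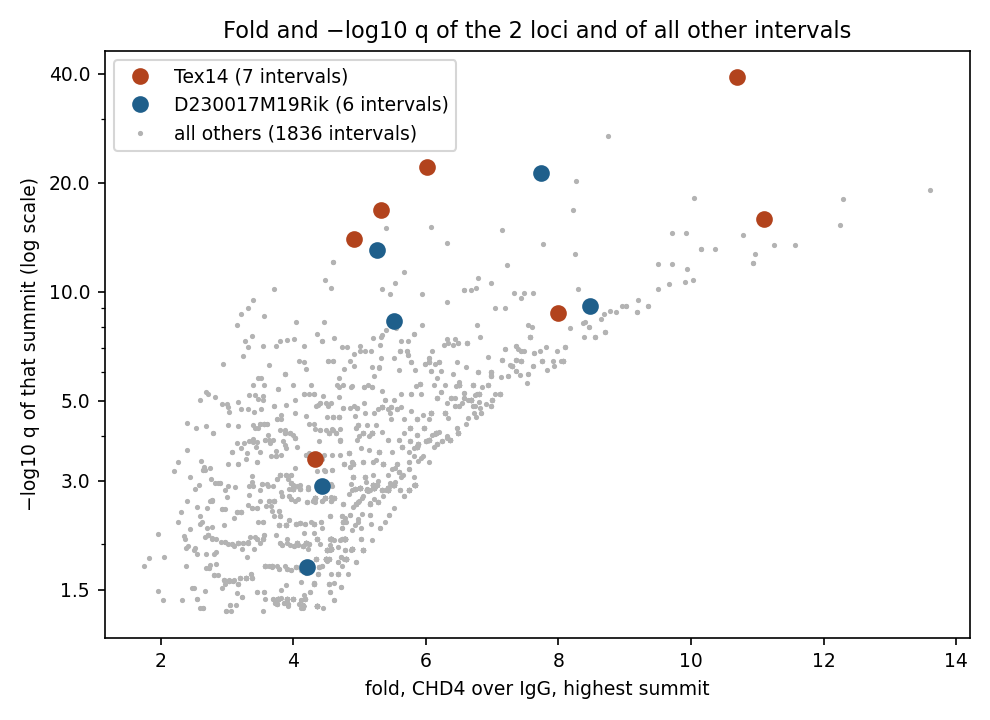
Fold of CHD4 over IgG at the highest summit (x) and −log10 q of that summit (y, log scale) for the 7 Tex14 intervals, the 6 D230017M19Rik intervals and the 1836 others. The arrays reach −log10 q up to 39.1, above every other interval, at folds of 4.21 to 11.1 that other intervals share.

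IgG was also higher at many of the array summits. The IgG expectation at the highest summit had a median of 4 fragments in the 13 members, against 1.29 in the other intervals, and reached 9.04 in the arrays, against 43 in the list as a whole. At the 15 other intervals on small nuclear RNA genes the median was 5. None of the 23 array summits stood at the lowest expectation of the list, 0.346 fragments, which 131 summits share. At Rnu3b2, at Gm23472 and at the narrow interval beside Rnu3b1 the expectation was 1.11, 1.09 and 1.16 fragments, below the median of the other intervals. The part of the raised IgG level in these values was not tested.

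**Figure D4:**
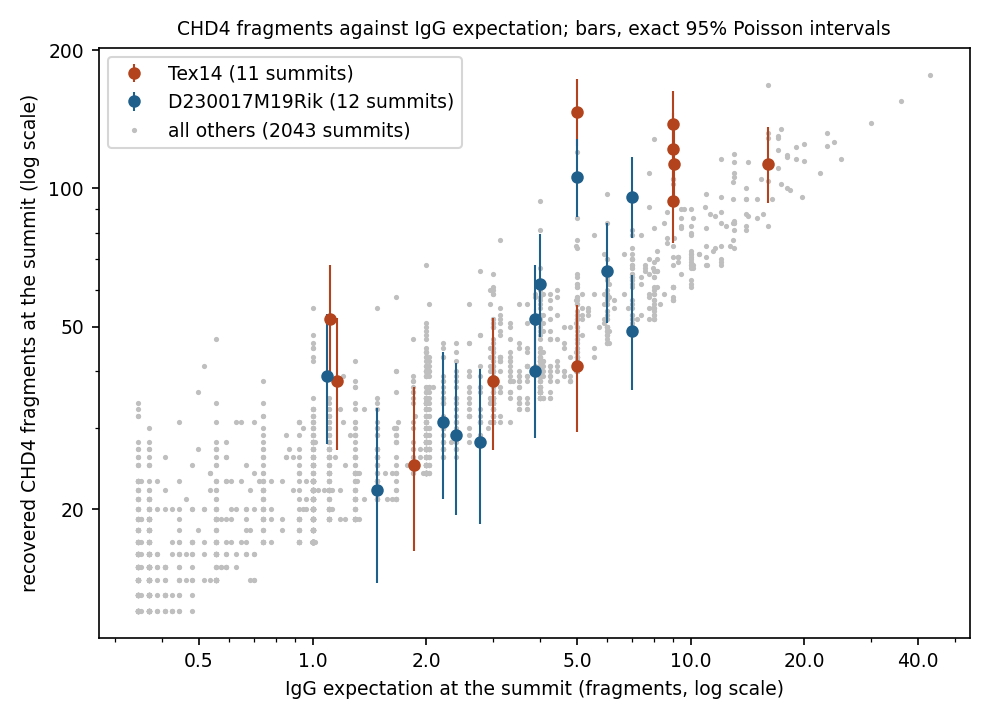
Recovered CHD4 fragments (y, log scale) against IgG expectation (x, log scale) at each summit: 11 at Tex14, 12 at D230017M19Rik and 2043 others. Bars are exact 95% Poisson intervals of the CHD4 fragments, which are drawn before scaling by 0.429. The highest array summits, with 94 to 147 fragments, lie at IgG expectations from 5 to 16.

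Set side by side, the Tex14 array had more CHD4 fragments and higher −log10 q than the D230017M19Rik array, while their folds overlapped. Fold had a median of 6.02 at Tex14 (range 4.32 to 11.1) and of 5.39 at D230017M19Rik (4.21 to 8.48), a difference of 0.623. That difference had no stable sign: with only the intervals on a small nuclear RNA gene the medians were 5.67 and 6.63, a difference of −0.955. The median −log10 q was 15.9 at Tex14 (3.44 to 39.1) and 8.71 at D230017M19Rik (1.73 to 21.3), a difference of 7.21 that remained positive, at 5.35, on small nuclear RNA genes alone. The median number of fragments was 113 at Tex14 (38 to 147) and 50.5 at D230017M19Rik (22 to 106). The median IgG expectation was 5 at Tex14 and 3.11 at D230017M19Rik. Median width was 983 bp at Tex14 (230 to 1310) and 739 bp at D230017M19Rik (186 to 1477), an order that turned round on small nuclear RNA genes alone, at 1062.5 and 1091.5 bp. In each array 3 intervals had 2 or more summits, and the 11 summits at Tex14 compared with 12 at D230017M19Rik. All ranges overlapped, and with 1 call over the samples no error between animals can be set beside these differences.

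Other small nuclear RNA genes of the same lengths mostly had no interval. The gene table lists 1004 small nuclear RNA genes, of which 25, or 2.49%, overlapped an interval. All 3 genes of 215 bases and the 1 of 218 bases, the Rnu3b genes of the Tex14 array, were among them. Of the 34 genes of 164 bases, the length of Rnu1a1, 3 had an interval, 2 of them in the Tex14 array. The third, Gm22513, had a fold of 8.74 from 120 fragments, the highest fold of any small nuclear RNA gene outside the arrays. Of the 15 genes of 191 bases 7 had an interval, 4 of them in the D230017M19Rik array. The other 3, LOC115487916, Gm22973 and Gm23444, had folds of 3.39, 3.38 and 2.67, all below the 5.27 to 8.48 of the array's 4 genes. Gene bodies of equal length are not shown here to be of equal sequence, and which of them are functional copies is not annotated in the table. As the treatment of multiply mapped reads is not stated, a gene without an interval is not shown to lack CHD4.

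Among the 15 small nuclear RNA genes that carry an Rnu symbol, 10 had an interval, against 2.49% of all 1004 small nuclear RNA genes. The 10 were the 5 of the Tex14 array, which was picked for its intervals, and Rnu11, Rnu2-10, Rnu5g, Rnu3a and Rnu12. The share of 10 in 15 is thus partly built in by that choice and carries no test. Rnu11 and Rnu12 serve the minor spliceosome, and their intervals had folds of 6.32 and 3.07. Rnu2-10, a U2 gene, had 6.09, and Rnu5g, a U5 gene, had 4.36. Rnu3a, a U3 gene on chromosome 10 that lies outside the array, had 3.32 from 75 fragments over an expectation of 9, below all 4 Rnu3b genes. The 5 without an interval were the U1 genes Rnu1b1, Rnu1b2 and Rnu1b6, the histone pre-mRNA processing gene Rnu7, and Rnu6. The same limit on multiply mapped reads applies to them. The intervals of highest fold at small nuclear RNA genes outside the arrays, after Gm22513, were at Gm23143 with 8.25, Gm22265 with 6.82, Rnu11, Rnu2-10, Gm24830 with 4.64, LOC115487699 with 4.47, Rnu5g, Gm24407 with 3.93 and Gm25313 with 3.47. The median fold over the 15 was 4.36 and the median −log10 q 4.93, against 5.77 and 15 in the 10 array intervals on such genes.

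The protein genes that make and use these RNAs were named for an interval at shares near that of all protein-coding genes. Of 32 genes for transcription and 3′ end formation of small nuclear RNAs, 3 were named for an interval, or 9.38%, and of 30 genes for particle proteins 2 were, or 6.67%, against 6.07% of all protein-coding genes. Ints7, an Integrator subunit, had an interval 0.011 kb from its start with a fold of 3.03 from 87 fragments. Zc3h8, of the little elongation complex, had one at 0.089 kb with 4.19, and Ints4, also of Integrator, one at 9.43 kb with 4.57 from 12 fragments. Snrpd2, a core Sm protein, had an interval over its start with a fold of 2.98, and Sf3a3, a protein of the U2 particle, one 5.39 kb upstream with 4.2. All 5 folds lay below the median of either array, and also below the median of all intervals, 4.76.

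Among the genes named for 5 or more intervals, only Tex14 and D230017M19Rik had intervals on small nuclear RNA genes. The other 7 were Tns3 with 8 intervals, Dlgap1 with 7, Ccnl1 and Txndc2 with 6, and Creb3l2, Irf2bpl and Pvt1 with 5. Their spans ranged from 9.8 kb at Irf2bpl to 378 kb at Tns3, which bracket those of the arrays. Their median widths, from 237 bp at Dlgap1 to 413 bp at Pvt1, and their median −log10 q, from 2.45 at Ccnl1 to 4.47 at Txndc2, lay below the 983 bp and 15.9 of Tex14 and the 739 bp and 8.71 of D230017M19Rik. Their median folds, from 3.63 at Irf2bpl to 6.21 at Txndc2, bracketed those of both arrays.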

How the data were processed

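CUT&Tag was done on 2 CHD4 and 2 IgG samples. The submitters' processing notes name build mm10 and the tools MACS2 2.1.2, Bowtie2 2.2.5 and Trim Galore 0.5.0, with no order; how multiply mapped and duplicate reads were treated and how replicates were combined is not stated there. Per the file headers the deposited list holds the fold of CHD4 over IgG, a ratio, and its log2. The deposited −log10 p and −log10 q columns have damaged headers and were read in the caller's column order. The deposited score is 10 times −log10 q. The largest q is 0.0492.

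The summit of highest fold gave each interval its fold and q. Coordinates are mm10, counted from 1, and genes and the promoter come from RefSeq tables of GRCm38.p6, whose chromosomes share those coordinates. Overlap meant at least 1 shared base. CHD4 fragments (number n) and IgG expectation (e) were solved so that the fold is (0.429n + 1)/(e + 1) and p is the Poisson tail, with 1 solution at all 2066 summits (tolerance 0.0005 on −log10 p). The scale was the largest that solved the sampled summits. A whole fraction of it would solve them too and would give larger fragment numbers, so these numbers rest on that choice. In a simulation with the same rule, 100% of 211 summits were recovered. It did not check the choice of scale, and its IgG expectations did not reach the highest of the list. Nor did they reach those of several array summits, among them Rnu1a1 (16 and 9.04) and the highest summits of Rnu3b3 and Rnu3b4 (9 each). The members, lists and comparisons were chosen with earlier results of these data known. The genes named are the members, all genes they overlap, small nuclear RNA genes on an interval (the 10 of highest fold by name), genes with 5 or more intervals and the listed genes with an interval; LOC115487916, Gm22973, Gm23444 and the Rnu genes outside that rule were named for their length or symbol after their values were seen. Alternatives changed unit, q threshold, summit, members, overlap and ratio. Python 3.11.15, pandas 2.3.3, numpy 2.4.6, scipy 1.17.1 and matplotlib 3.10.9 were used.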

Additional observations from a re-analysis of the deposited data

How the results depend on the processing

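No paired analysis was possible because the list holds no value for any single sample, and for the same reason no replicate could be left out. Of 53 alternative values, 42 stayed within 1.5 times of the reported value with the same sign. The difference in median fold, Tex14 minus D230017M19Rik, was 0.623 as reported. It reversed to −0.955 with only intervals on small nuclear RNA genes and to −0.612 at q below 0.001, and was 1.36 with the lowest summit of each interval, 0.404 without the interval of highest fold of each array, 1.49 without that of lowest fold and 0.0574 with fragment ratios lacking the caller's added 1. Fewer intervals enter in the first 2 settings and in those that leave out an interval of each array. The cause of the change was not tested in any setting. Asking for the whole gene inside the interval left 1 Tex14 and 2 D230017M19Rik intervals on a small nuclear RNA gene, against 6 and 4. Counting summits gave 11 and 12 members, against 7 and 6 intervals. At q below 0.001, 7 and 4 intervals were left. Joining across gaps up to 10 kb split the Tex14 array into 3 groups. Member intervals hold 22 to 147 CHD4 fragments at their highest summit, and counting error is widest in proportion at the lowest of these.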
